A study of Mus musculus with 40 samples.

Results

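Loss of ATF1 and CREB1 together was examined in mpkCCD, a mouse cell line from the collecting duct of the kidney that grows without limit in culture. The comparison sets the 3 libraries labelled ATF1/CREB1-KO against the 3 libraries of control clones 6 to 8, which carry the library numbers 11 to 16. They are 6 of 40 samples in the series and 6 of the 22 libraries with a column in the expression table. The controls are clones labelled WT and described as unmodified. Every library came from cells made polar on permeable supports and kept for 3 days in medium with 50 nM dexamethasone and 0.1 nM dDAVP, a synthetic vasopressin analogue (72 hours). No library of this comparison is without dDAVP, so the response to the hormone itself is not measured. Whether the 3 replicates of a genotype are separate clones, cultures or harvests is not in the labels, and p-values then measure only the spread between these libraries, which may be technical.

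CREB1, ATF1 and CREM form one family of basic leucine zipper transcription factors. They bind as dimers to the cAMP response element (CRE), a palindrome often found just before the start of a gene, and become active when protein kinase A or other kinases phosphorylate them. In the collecting duct, vasopressin acts through its V2 receptor and adenylyl cyclase to raise cAMP, and the water channel gene Aqp2 is the best known gene that this pathway turns on. CREM also yields repressor forms from the same gene, so the family holds both activators and inhibitors of cAMP-driven transcription.

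The values are TPM, transcript abundances scaled to the same total in each library and corrected for length. Sequencing depth cannot be read from them and is unknown here. Changes are differences in mean log2(TPM + 1), which understate the fold of low genes, and were tested with limma. Of the 55414 genes in the table, 12579 averaged 1 TPM or more in these 6 libraries and were tested. In bulk RNA, fewer cells with a transcript and less of it per cell cannot be told apart.

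The library labelled ATF1/CREB1-KO replicate 3 stood apart. Its log2 profile correlated at 0.911 to 0.927 with the other 5 libraries, while the 3 control clones correlated with each other at 0.969 to 0.973. Cytosolic ribosomal protein transcripts took 14.5% to 15.4% of TPM in the control clones, 13.4% and 12.8% in knockout replicates 1 and 2, and 7.23% in replicate 3. In the other 16 libraries of the table they took 2.65% to 4.16%. The counts below are therefore also given without replicate 3, and named genes whose call needs that library are pointed out. Of the principal cell genes, Avpr2, Scnn1a, Gata3, Elf3 and Cdh1 were above 30 TPM in every library. Aqp4, Scnn1b, Kcnj1 and Elf5, which also mark principal cells, stayed below 2 TPM. Markers of the thick limb and distal convoluted tubule were near 0: Umod, Slc12a1, Slc12a3, Pvalb and Cldn16 summed to at most 1.12 TPM. Endothelial markers summed to at most 0.39 TPM and fibroblast markers to at most 1.39 TPM. Single markers of intercalated cells (Aqp6), proximal tubule (Lrp2), podocytes (Podxl, Synpo) and macrophages (Cd68, Csf1r) were above 1 TPM in all 6 libraries. Over these libraries, marker lists summed to 6.88 to 12.7 TPM for intercalated cells and 2.6 to 22.8 TPM for proximal tubule. They summed to 12.7 to 27.3 TPM for podocytes and 5.6 to 23.5 TPM for leukocytes and macrophages. Lrp2 was at 6.69, 6.77 and 6.67 TPM in control clones 6, 7 and 8. In knockout replicates 1, 2 and 3 Lrp2 was at 22.56, 5.05 and 2.52 TPM.

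The targeted genes were read first. Atf1 stood at 23.32, 26.22 and 23.9 TPM in control clones 6, 7 and 8 and at 18.34, 23.73 and 15.06 TPM in knockout replicates 1, 2 and 3. The groups overlapped, and the log2 change was -0.37 ± 0.22 (SE; limma adjusted p = 0.635). Creb1 stood at 4.98, 6.69 and 4.99 TPM in the controls and at 3.86, 3.59 and 2.72 TPM in the knockouts. All 3 knockout libraries lay below all 3 controls, with a log2 change of -0.58 ± 0.20 (limma adjusted p = 0.471 in these 6 libraries, and 0.0078 with the spread of 22, a fit described below). A gene total does not show an edit in the coding sequence, so the knockout state rests on the label.

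Crem, which the label does not name, moved the other way. Its level was 9.08, 10.63 and 12.96 TPM in the controls and 15.49, 20.47 and 46.54 TPM in the knockouts, a log2 change of 1.12 ± 0.39 (limma adjusted p = 0.467 and 0.024). The groups did not overlap, replicate 3 was the highest, and without replicate 3 Crem was not called in either fit. Aqp2 was 855.29, 379.15 and 1029 TPM in the controls and 637.03, 491.68 and 507.73 TPM in the knockouts. All knockout values fell within the range of the controls, and the log2 change was -0.36 ± 0.37 (limma adjusted p = 0.775). Exact two-sided permutation tests over the 20 splits of 6 libraries gave p = 0.4 for Aqp2, 0.2 for Atf1 and 0.1 for both Creb1 and Crem (0.4, 0.267, 0.2 and 0.2 after Benjamini-Hochberg adjustment over the 4). The smallest p this design allows is 0.1.

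**Figure D1:**
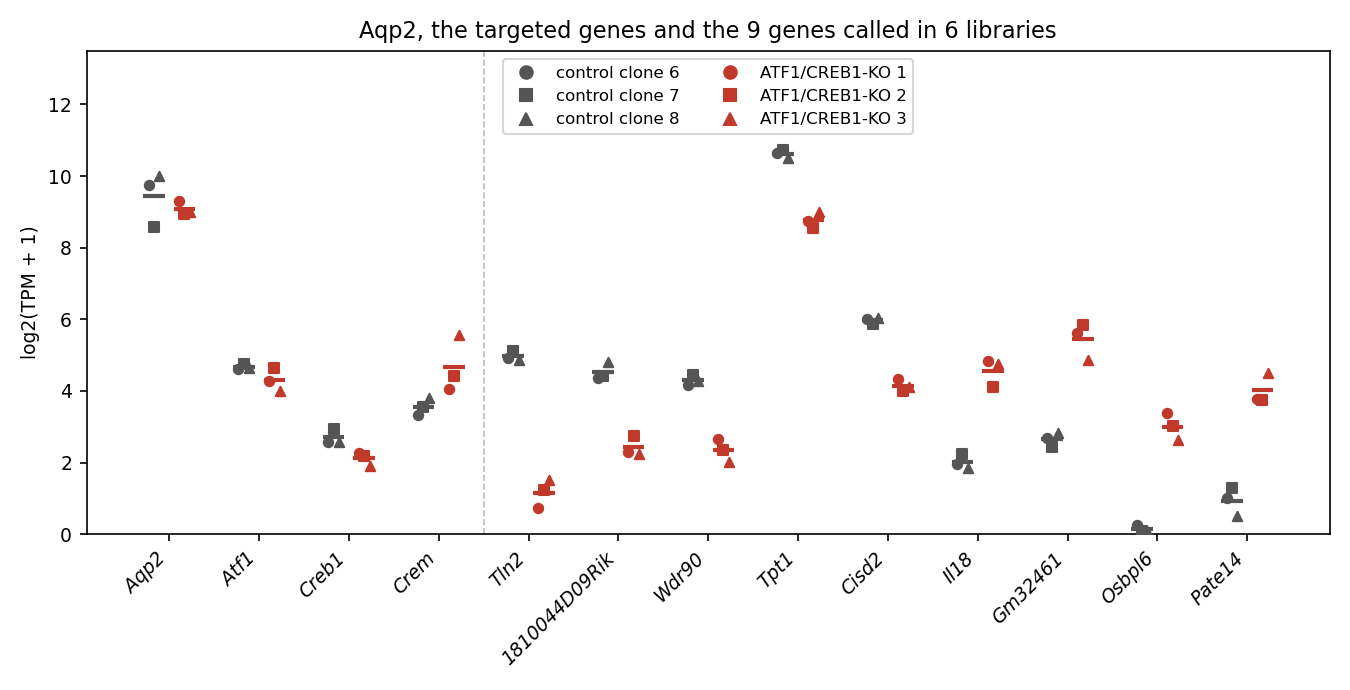
Levels of Aqp2, Atf1, Creb1, Crem and the 9 genes that passed the 6-library test, as log2(TPM + 1). Each point is 1 library (grey, control clones 6 to 8; red, ATF1/CREB1-KO replicates 1 to 3) and each bar is the mean of 3; the groups overlap for Aqp2 and Atf1 and are apart for the 9 genes.

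Across all genes, 9 of 12579 passed an adjusted p of 0.05 in the 6 libraries (0.0715%), 4 higher (0.0318%) and 5 lower (0.0397%). At an unadjusted p under 0.05 there were 1199 genes (9.53%). The groups did not overlap for 2393 genes (19.0%), of which 839 were higher (6.67%) and 1554 lower (12.4%). The median change over all tested genes was -0.0305, 46.9% of genes had a change above 0, and 529 genes (4.21%) differed by at least 2-fold on the log2(TPM + 1) scale.

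Of the 5 genes that fell, Tln2 fell most. It encodes talin-2, a large protein that links integrins to actin. Tln2 was at 29.05, 33.81 and 28.42 TPM in the controls and at 0.66, 1.35 and 1.85 TPM in the knockouts, a log2 change of -3.81 ± 0.24 (limma adjusted p = 0.00772). The mean level in the knockouts was 4.23% of that in the controls. Tpt1 encodes TCTP, a very abundant growth-associated protein. It fell from 1595.99, 1693.13 and 1458.99 TPM to 429.51, 374.58 and 508.37 TPM (log2 change -1.86 ± 0.18, limma adjusted p = 0.0354). Neither gene had any overlap between its groups.

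Cisd2, an iron-sulfur protein of the mitochondrial outer membrane and endoplasmic reticulum, fell from 63.95, 57.74 and 64.39 TPM to 19.06, 14.93 and 16.41 TPM. Its log2 change was -1.83 ± 0.19 (limma adjusted p = 0.0379), with all 3 knockout libraries close together. Wdr90, a centriole protein with WD40 repeats, fell from 17.14, 20.71 and 18.25 TPM to 5.34, 4.09 and 3.05 TPM (-1.95 ± 0.21, limma adjusted p = 0.0458). The long non-coding RNA 1810044D09Rik fell from 19.6, 20.44 and 26.8 TPM to 3.88, 5.73 and 3.73 TPM (-2.10 ± 0.22, limma adjusted p = 0.0379). In all 3 the highest knockout library stayed under the lowest control.

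The 4 genes that rose were low in the controls. Pate14, a secreted protein of the Ly6 and PATE family, went from 1.01, 1.44 and 0.41 TPM to 12.83, 12.41 and 21.88 TPM (3.09 ± 0.30, limma adjusted p = 0.0354). Osbpl6, a sterol-binding protein, went from 0.2, 0.06 and 0.06 TPM to 9.38, 7.07 and 5.15 TPM (2.86 ± 0.26, limma adjusted p = 0.0354). Il18 encodes a cytokine that is stored as a precursor and cut by caspase-1. Il18 rose from 2.9, 3.76 and 2.61 TPM to 27.65, 16.26 and 26.14 TPM (2.55 ± 0.25, limma adjusted p = 0.0354). The long non-coding RNA Gm32461 rose from 5.42, 4.42 and 6.13 TPM to 48.3, 56.87 and 28.05 TPM (2.79 ± 0.29, limma adjusted p = 0.0379). In each of these genes every knockout library lay above every control.

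How many genes passed depended on which libraries and which spread entered the test. Without knockout replicate 3, 50 genes passed (15 higher and 35 lower) and all 9 were among them. Leaving out knockout replicate 2 left 0 genes past the threshold (1473 at an unadjusted p under 0.05, limma), knockout replicate 1 left 2, and control clones 6, 7 and 8 left 5, 3 and 6. A fit of all 22 libraries has 1 mean for each genotype within each run of library numbers. It gives the same log2 changes, but takes the spread from 16 residual degrees of freedom in place of 4. It called 662 genes (5.26%), 220 higher (1.75%) and 442 lower (3.51%), the 9 included. The log2 profiles of the 6 libraries correlated with those of the other 16 at 0.738 to 0.827, and with each other at 0.911 or more. The 22-library fit assumes an equal spread in those 16, where 9 of the 662 genes were listed at 0 throughout, and 21 of the 662 had overlapping groups. Leaving out each of the 6 libraries moved its count between 274 and 1474: 320 without control clone 6, 274 without 7 and 340 without 8, and 1462, 1474 and 1075 without knockout replicates 1, 2 and 3. A core of 194 genes, 137 lower and 57 higher, was called in the 22-library fit and again without each of the 6 libraries in turn. Calls below are from the 22-library fit unless the 6-library test is named. Without knockout replicate 3 that fit called 219 genes higher (1.74%) and 856 lower (6.8%), and the median change over all tested genes was -0.104. Of 72 named genes called in it, all kept their sign without replicate 3, and 22 were no longer called.

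More abundant genes fell in the 22-library fit. Mrpl4, a protein of the mitochondrial ribosome, went from 59.96, 74.52 and 63.37 TPM to 9.12, 14.82 and 30.25 TPM (-1.96 ± 0.40, limma adjusted p = 0.229 in 6 libraries and 8.75e-05 in 22). Mzt2, a component of the gamma-tubulin ring that starts microtubules, went from 75.18, 80.78 and 81.28 TPM to 16.76, 22.49 and 24.9 TPM (-1.86 ± 0.21, limma adjusted p = 0.0559 and 6.71e-05). Both are in the core of 194 genes. Glod4 fell in replicates 1 and 2 far more than in replicate 3, with 36.42, 41.11 and 31.41 TPM in the controls and 4.03, 7.3 and 26.09 TPM in the knockouts (-1.83 ± 0.57, limma adjusted p = 0.416 and 0.00569). Cebpd, a C/EBP transcription factor, had 30.68, 10.76 and 30.01 TPM in the controls and 4.12, 6.94 and 3.77 TPM in the knockouts (-1.97 ± 0.42, limma adjusted p = 0.252 and 0.0378, and not called without replicate 3). Rpph1, the RNA of ribonuclease P, and the unnamed locus Gm20529 also fell, by 2.03 and 2.32 on the log2 scale. Their limma adjusted p was 0.328 and 0.518 in 6 libraries, and 0.0456 and 0.0288 in 22. For both, knockout replicate 3 was far below replicates 1 and 2, at 1.94 and 0.0 TPM, and Rpph1 was not called without it (limma adjusted p = 0.146). Gm20529 had a log2 change of 0.0 in ATF1/CREB1/CREM-KO, the triple knockout, and did not reach the filter of 1 TPM in that comparison.

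Other genes rose in that fit, several of them from low levels in the controls. S100g encodes calbindin-D9k, a calcium-binding protein of calcium-transporting epithelia. It went from 4.79, 3.44 and 3.94 TPM to 75.31, 145.29 and 18.54 TPM (3.58 ± 0.66, limma adjusted p = 0.174 in 6 libraries and 0.00353 in 22). Sgk1, the aldosterone- and glucocorticoid-induced kinase that raises sodium channel activity, went from 18.94, 28.96 and 11.85 TPM to 118.74, 148.33 and 211.49 TPM (2.98 ± 0.36, limma adjusted p = 0.0568 and 0.0395). Groups that do not overlap were a condition for naming both, and the size of the rise in S100g differed between knockout libraries. Nr3c2, the mineralocorticoid receptor, rose from 1.73, 1.38 and 0.49 TPM to 2.7, 4.32 and 7.88 TPM (1.39 ± 0.38, limma adjusted p = 0.371 and 0.0237).

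Tspan13, a tetraspanin, was at 1.87, 0.82 and 2.55 TPM in the controls and at 6.46, 21.46 and 90.14 TPM in the knockouts (3.23 ± 0.82, limma adjusted p = 0.329 and 0.00482). Its replicates spanned more than 10-fold, with replicate 3 highest. Alox5ap, the protein that presents arachidonic acid to 5-lipoxygenase, went from 14.98, 13.64 and 10.33 TPM to 44.0, 56.41 and 34.7 TPM (1.71 ± 0.25, limma adjusted p = 0.105 and 0.0317). Calml4, a calmodulin-like protein of microvilli, went from 93.54, 94.72 and 91.84 TPM to 499.37, 220.63 and 286.97 TPM (1.75 ± 0.31, limma adjusted p = 0.166 and 0.00718). Sult1c2, a sulfotransferase, Ly6a, which encodes the surface protein Sca-1, and Mlana rose by log2 changes of 2.5, 1.89 and 1.74. Groups that do not overlap were a condition for naming these genes. Of these, Sult1c2 and Ly6a were not called without replicate 3 (limma adjusted p = 0.0708 and 0.052).

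Of 27 tested genes known to respond to cAMP through CREB, 12 had a log2 change above 0 and 15 below. Sgk1 was called higher, and Nr4a1 and Pde4b lower, against 1.75% and 3.51% of all tested genes. The median change was -0.0429 against -0.0305 over all tested genes. Nr4a1, an orphan nuclear receptor induced rapidly by cAMP, went from 6.7, 9.09 and 8.95 TPM to 2.56, 3.69 and 5.4 TPM (-0.95 ± 0.26, limma adjusted p = 0.368 in 6 libraries and 0.0405 in 22). Pde4b, a phosphodiesterase that breaks down cAMP, went from 3.87, 4.61 and 4.45 TPM to 1.39, 2.01 and 2.75 TPM (-0.82 ± 0.23, limma adjusted p = 0.371 and 0.0154). Both had knockout values under every control. Groups were also apart for Btg2, Junb and Nr4a2, at log2 changes of -0.93, -0.41 and -0.36, and for Avpi1 at 0.25, none of them called. In all, 5 of the 27 genes lay apart on the low side and 2 on the high side, against 12.4% and 6.67% of all tested genes. Without knockout replicate 3, 0 were called higher (limma) and 4 lower, against 1.74% and 6.8% of all tested genes. The 4 were Nr4a1, Fos, Pde4b and Ccna2.

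Of the 10 coactivators and salt-inducible kinases, which CREB proteins work with, 9 had a change below 0 and 0 were called (limma). Over all tested genes, 46.9% had a change above 0. Crtc1, Crtc3 and Crebbp had groups apart on the low side, at log2 changes of -0.39, -0.59 and -0.84, against 12.4% of all tested genes. The list median was -0.337, but by library it was -0.343, -0.0437 and -0.584 in knockout replicates 1, 2 and 3. The medians over all tested genes in these libraries were -0.1, -0.0988 and 0.0819. Without knockout replicate 3, Crtc3 and Nono were called lower, against 6.8% of all tested genes. In the list of other ATF and CREB-like factors, 2 of 16 were called lower (3.51% of all genes), Atf6 at -0.42 and Cebpd at -1.97. Without replicate 3 the 2 called lower were Atf6 and Cebpg (6.8% of all genes), and 12 of the 16 lay below 0. Of 18 genes from the V2 receptor to protein kinase A and phosphodiesterases, 9 lay on each side of 0. Pde4b alone was called, as lower, against 3.51% of all tested genes. Without replicate 3, 4 of the 18 lay above 0 and 14 below, while the median over all tested genes was -0.104. Pde4b was again the only call, as lower, against 6.8% of all tested genes. Avpr2 was at 49.22, 37.04 and 50.46 TPM in the controls and 57.28, 33.39 and 77.2 TPM in the knockouts, an overlap.

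Of 28 tested principal cell genes, 13 had a log2 change above 0 and 15 below, and the median was -0.00407. Nr3c2 and Sgk1 were called higher and 0 were called lower (limma), against 1.75% and 3.51% of all tested genes. Hsd11b2, the enzyme that inactivates cortisol and so keeps the mineralocorticoid receptor for aldosterone, had no overlap, at 16.7, 14.93 and 15.66 TPM in the controls and 171.37, 50.38 and 30.93 TPM in the knockouts. Its log2 change of 1.97 was not called (limma adjusted p = 0.375 in 6 libraries and 0.212 in 22), and replicate 1 was far above the other knockout libraries. Aqp3, the basolateral water channel, was low and apart, at 0.63, 0.81 and 0.97 TPM against 1.87, 1.3 and 5.33 TPM. Without knockout replicate 3 the calls of this list were different ones: 0 higher and 3 lower, against 1.74% and 6.8% of all tested genes. The 3 were the keratins Krt8, Krt18 and Krt19. Sgk1 and Nr3c2 were then not called (limma).

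Among 23 genes of vesicle trafficking linked to aquaporin-2, the small GTPases Rab5a and Rab11a were called higher and Rab27a lower. Of all tested genes 1.75% were called higher and 3.51% lower. Without knockout replicate 3, Rab27a and Vamp3 were called lower and 0 higher (limma), against 6.8% and 1.74% of all tested genes. Then 17 of the 23 lay below 0. Rab27a, which tethers secretory vesicles, went from 3.12, 2.75 and 2.52 TPM to 0.77, 0.98 and 0.44 TPM (-1.14 ± 0.24, limma adjusted p = 0.237 in 6 libraries and 7.3e-05 in 22) and is in the core of 194 genes. Rab11a, of recycling endosomes, went from 329.4, 357.58 and 347.94 TPM to 467.13, 459.13 and 789.95 TPM (0.68 ± 0.25, limma adjusted p = 0.48 and 0.0328), highest in replicate 3, and neither Rab11a nor Rab5a was called without that library. Among 28 genes of cholesterol and fatty acid synthesis Gpam was the 1 called, as lower, against 3.51% of all tested genes. Without replicate 3 Hmgcs1, Idi1, Sc5d and Gpam were called lower, against 6.8% of all tested genes. Then 22 of 28 lay below 0, while the median over all tested genes was itself -0.104. Gpam, the mitochondrial enzyme of the first step of glycerolipid synthesis, went from 4.26, 3.73 and 2.87 TPM to 0.12, 0.66 and 0.15 TPM (-1.83 ± 0.27, limma adjusted p = 0.105 and 1.64e-06).

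Cytosolic ribosomal protein genes were lower as a group. Of 79 tested, 78 had a log2 change below 0, 56 had groups apart on the low side (12.4% of all genes), 18 were called lower (3.51% of all genes), and the median was -0.494. The largest called fall was that of Rps12, from 1875.33, 1708.41 and 1961.39 TPM to 1290.85, 1251.79 and 392.67 TPM (-1.10 ± 0.44, limma adjusted p = 0.502 in 6 libraries and 0.0477 in 22). Replicate 3 was far below the other 2, and without it the log2 change was -0.54 and Rps12 was not called (limma adjusted p = 0.119). Measured against the mean of the controls, the list median was -0.269, -0.272 and -1.04 in knockout replicates 1, 2 and 3. Without replicate 3 the list median was -0.29, with 72 of 79 below 0 and 11 called lower (6.8% of all genes). TPM is a share of a fixed total, and these transcripts took 14.5% to 15.4% of it in the controls. With ribosomal protein and mitochondrial transcripts left out and the rest rescaled, 21 genes passed the 6-library test and the 9 were among them.

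Transcripts of the mitochondrial genome moved in the opposite direction. All 8 tested had a log2 change above 0, 5 had groups apart on the high side (6.67% of all genes) and 4 were called higher (1.75% of all genes), with a median of 0.947. The remaining 5 of the 13 protein-coding transcripts were listed at 0 in all 6 libraries. mt-Nd1, a subunit of complex I, went from 3685.03, 3574.94 and 3492.78 TPM to 8207.79, 6310.76 and 7965.86 TPM (1.05 ± 0.14, limma adjusted p = 0.0568 in 6 libraries and 0.000167 in 22). mt-Cytb, of complex III, rose by a log2 change of 1.34 and mt-Nd5 by 1.15. The list median was 1.38, 0.86 and 0.666 in replicates 1, 2 and 3, and 1.16 without replicate 3, when 7 of the 8 were called higher (1.74% of all genes).

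Nuclear genes of the respiratory chain had few calls. Of 58 tested, 1 was called higher (Ndufv2, 0.48) and 1 lower (Ndufb2), against 1.75% and 3.51% of all tested genes. The median was 0.0995. Ndufb2, a complex I subunit, went from 1102.83, 1023.11 and 1116.45 TPM to 571.77, 848.6 and 596.65 TPM (-0.71 ± 0.20, limma adjusted p = 0.371 and 0.014). Without replicate 3, 8 were called higher and 1 lower, against 1.74% and 6.8% of all tested genes. Among 18 mitochondrial translation factors and proteases, Guf1 and Tysnd1 were called lower and Mrrf and Lonp1 higher, against 3.51% and 1.75% of all genes. Mrrf was highest in replicate 3 and not called without it (limma adjusted p = 0.0778). Guf1, a GTPase of mitochondrial translation, went from 3.03, 5.87 and 3.47 TPM to 0.2, 0.32 and 0.59 TPM (-1.87 ± 0.28, limma adjusted p = 0.113 and 1.84e-05). Tysnd1, a protease of peroxisomes listed with them, went from 9.12, 8.8 and 10.05 TPM to 1.32, 2.3 and 2.62 TPM (-1.77 ± 0.22, limma adjusted p = 0.0568 and 3.6e-05).

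Genes of DNA replication and mitosis were lower in 2 of the 3 knockout libraries. Of 30 tested, 24 had a log2 change below 0, 5 were called lower (Mki67, Top2a, Mcm2, Mcm3 and E2f1; 3.51% of all genes), and the median was -0.23. The list median was -0.854 in replicate 1 and -0.352 in replicate 2, but 0.547 in replicate 3. Without replicate 3, all 30 lay below 0, 18 were called lower (6.8% of all genes) and the median was -0.604, against -0.104 over all genes. Mcm3, a subunit of the replicative helicase, went from 163.9, 176.68 and 147.23 TPM to 98.03, 110.11 and 103.34 TPM (-0.64 ± 0.19, limma adjusted p = 0.375 in 6 libraries and 0.0157 in 22). Bax, which opens the mitochondrial outer membrane in cell death, was the only called gene of 14 in the BCL2 family, at a log2 change of -0.54. The control clones spread less, with cell cycle list medians of -0.0825, 0.286 and -0.18 when each was set against the other two.

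**Figure D2:**
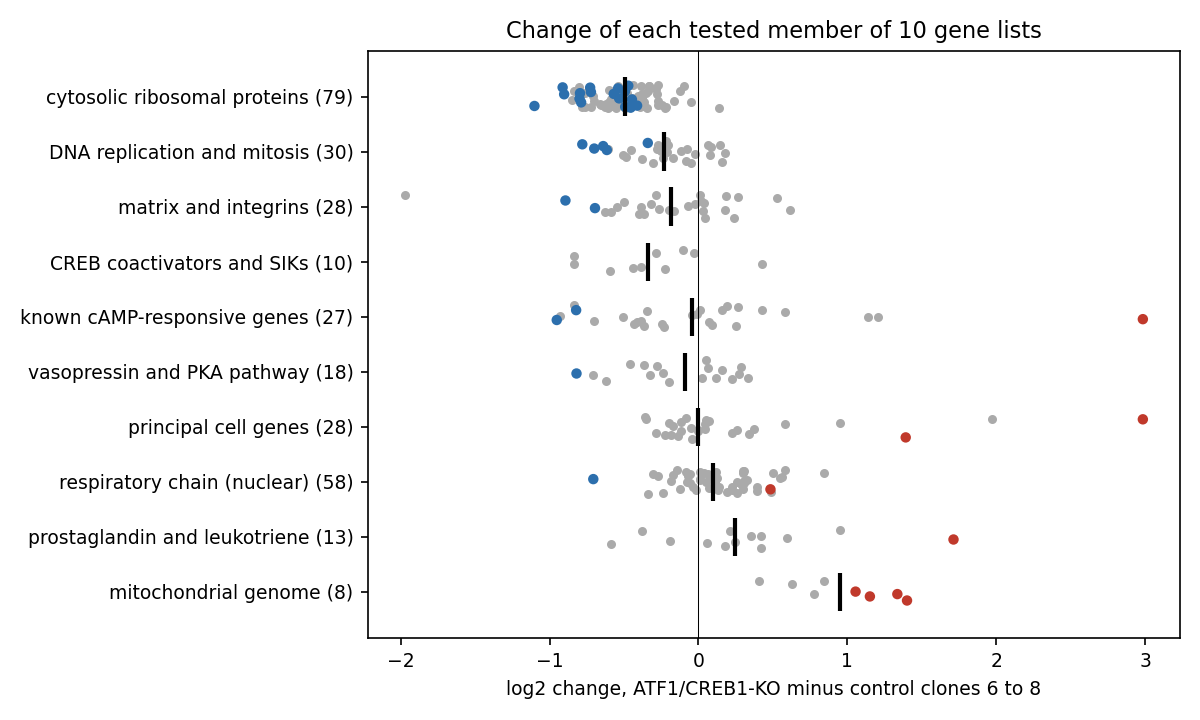
Log2 change of each tested member of 10 gene lists, ATF1/CREB1-KO minus control clones 6 to 8; points are genes, blue and red mark calls lower and higher in the 22-library fit, black lines are medians, and the number tested is in brackets. Ribosomal protein genes lie almost wholly below 0 (median -0.494) and mitochondrial genome transcripts wholly above it (median 0.947), while the cAMP-responsive and principal cell lists straddle 0.

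The remaining lists had few calls, beside 1.75% of all tested genes called higher and 3.51% lower. Herpud1 and Calr rose among 27 genes of the ATF4 and endoplasmic reticulum stress responses. Lamb2 and Itgb4 fell among 28 matrix and integrin genes, and Fosl1 rose among 13 immediate early factors. Without replicate 3 none of Calr, Lamb2, Itgb4 and Fosl1 was called (limma adjusted p between 0.0564 and 0.124), while Herpud1 was. Fos and the stress-response gene Sdf2l1 were then called lower, against 6.8% of all tested genes. Of the 27 stress-response genes, 21 then lay below 0. Among 16 circadian genes, 24 tight junction and polarity genes, 19 interferon-response genes and 7 sodium pump genes, 0 were called (limma). Their medians were 0.0867, -0.159, -0.014 and -0.0413. Without replicate 3 the circadian gene Tef was called higher and the interferon-response gene H2-D1 lower, against 1.74% and 6.8% of all tested genes.

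The promoters of genes that fell held the CRE more often than those of other genes. RefSeq windows from 250 bases before to 50 after each start (GRCm38.p6) were found by symbol for 9105 of the 12579 tested genes. The full palindrome TGACGTCA, which reads the same on both strands, was in a window of 338 genes (3.71%). It was in 45 of the 354 lowered genes with a window (12.7%), in 6 of 153 raised genes (3.92%) and in 287 of 8598 genes not called (3.34%). Its short form TGACG, searched on both strands as TGACG and CGTCA and contained in the palindrome, was in 54.5% of lowered, 36.6% of raised and 36.8% of all genes. These shares describe letters in a window and show no binding.

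Stretches that carry the motif in some of the named genes that fell are printed here, 5′ to 3′ on the gene's strand. Each ends at or before the start, and capitals mark the full palindrome.
1810044D09Rik (chr6:91440913-91440972, plus strand): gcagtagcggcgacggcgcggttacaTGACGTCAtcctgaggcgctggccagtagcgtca
Glod4 (chr11:76243700-76243749, minus strand): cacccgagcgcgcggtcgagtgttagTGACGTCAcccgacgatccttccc
Ndufb2 (chr6:39592525-39592564, plus strand): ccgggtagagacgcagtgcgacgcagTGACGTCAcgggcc
Rps9 (chr7:3703958-3704017, plus strand): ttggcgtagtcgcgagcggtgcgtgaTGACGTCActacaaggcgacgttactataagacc
Rpl26 (chr11:68901406-68901465, plus strand): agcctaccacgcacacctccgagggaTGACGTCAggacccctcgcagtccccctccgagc
The palindrome begins 48, 24, 14, 57 and 134 bases before the start in these 5 genes. Rps9 and Rpl26 are 2 of the 18 lowered ribosomal protein genes, with log2 changes of -0.49 and -0.79. Rpl18, another of the 18, also has the palindrome, 79 bases before its start, and is not printed (log2 change -0.54). Rpl26 and Rpl18 were not called without knockout replicate 3 (limma adjusted p = 0.0549 and 0.0575).

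Of the 5 genes that fell in the 6-library test, 1810044D09Rik has the full palindrome and Tpt1, Cisd2 and Wdr90 have the short form only, shown next in capitals. Tln2 had no window in the table.
Tpt1 (chr14:75845209-75845255, plus strand): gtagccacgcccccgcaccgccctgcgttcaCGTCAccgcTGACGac
Cisd2 (chr3:135423466-135423525, minus strand): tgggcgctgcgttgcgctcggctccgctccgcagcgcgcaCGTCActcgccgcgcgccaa
Wdr90 (chr17:25861536-25861595, minus strand): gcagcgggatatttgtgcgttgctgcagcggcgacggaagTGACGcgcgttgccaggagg
None of Osbpl6, Pate14, Il18 and Gm32461, the 4 that rose, has either motif in its window. The palindrome is not particular to genes that fell: Rab5a, which rose by a log2 change of 0.75, has it 28 bases before its start, as shown here with the palindrome in capitals.
Rab5a (chr17:53479180-53479233, plus strand): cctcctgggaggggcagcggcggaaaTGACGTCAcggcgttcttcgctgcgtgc
The Aqp2 window has the short form and no full palindrome, and the Creb1 window has neither.

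Read from the motif, the 338 genes with the palindrome had a median log2 change of -0.146, and the 8767 without it -0.024. Of the former 13.3% were called lower and 1.78% higher, and of the latter 3.52% and 1.68%. Set against the mean of the controls, the median of the genes with the palindrome differed from that of the others by -0.252 in knockout replicate 1, -0.0761 in replicate 2 and -0.0581 in replicate 3. The same difference in the 3 control clones, each set against the other two, was 0.00147, 0.0267 and -0.0268. The gap was widest in replicate 1. In the lowered genes, 39 of 47 palindromes (83.0%) began within 100 bases before the start, against 5 of 6 (83.3%) in raised genes and 215 of 317 (67.8%) in genes not called.

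The share with the palindrome moved with the libraries used. Without knockout replicate 3 it was 10.5% of lowered genes in the 22-library fit, and held for 6 of 25 lowered genes in the 6-library fit. It was 6.8% without knockout replicate 1 and 8.65% without replicate 2, and 17.1% without control clone 7. Of the 112 genes with a window among the 137 lowered genes of the core set, 20 held it (17.9%). Other motifs in lowered against all genes were the E-box CACGTG (8.47% and 12.1%), CCAAT or ATTGG (46.3% and 43.3%), the NRF1 motif (0.565% and 2.45%) and the GC box GGGCGG or CCGCCC (72.6% and 70.9%). Windows of lowered genes averaged 62.0% G and C, and those of all genes 61.3%.

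**Figure D3:**
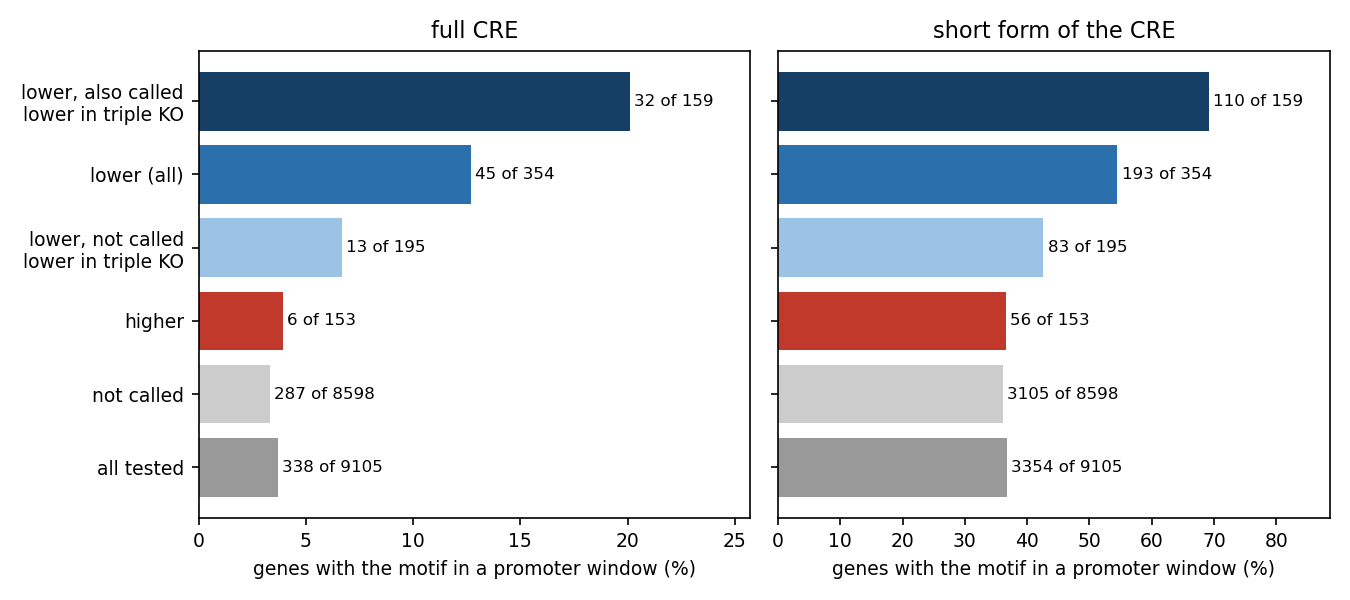
Percent of genes with the full CRE (left) or its short form (right) in a promoter window, by call in the 22-library fit; bars start at 0 and the labels give genes with the motif of genes with a window. The share is 12.7% in lowered genes and 20.1% in those also called lower in the triple knockout, beside 3.71% in all tested genes.

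The triple knockout ATF1/CREB1/CREM-KO was compared with its own control clones 9 to 11, so the 2 comparisons share no library. The labels do not say whether its cells derive from the double knockout. Its own 6 libraries gave 1216 calls among 13258 genes (9.17%). Of the 442 genes lower in ATF1/CREB1-KO, 414 (93.7%) also had a change below 0 there and 197 (44.6%) were called lower. Of the 220 higher genes, 202 (91.8%) were above 0 and 89 (40.5%) were called higher, with 1 called lower. Among genes not called in ATF1/CREB1-KO the change had the same sign for 62.8%, with 6.04% called in that direction.

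Of the 9 genes that passed the 6-library test, 8 were called in the same direction in the triple knockout. Cisd2 changed by -2.30 there, 1810044D09Rik by -2.91, Wdr90 by -2.16, Osbpl6 by 3.71, Gm32461 by 2.72 and Pate14 by 2.58. Il18, at 0.89, was the one not called (limma adjusted p = 0.496). The palindrome was in 32 of the 159 genes with a window that were called lower in both (20.1%), and in 13 of 195 called lower in ATF1/CREB1-KO alone (6.67%).

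The difference between the changes in the double and triple knockout passed for 20 of 12579 genes (0.159%), 17 with the higher value in the double and 3 with the lower. Aqp2 had the widest gap, -0.36 against -6.34, a difference of 5.98 (limma adjusted p = 9.2e-06). Pde4b, Gpam and Guf1 fell in both and further in the triple, at -0.82 against -4.47, -1.83 against -4.25, and -1.87 against -4.30 (limma adjusted p of the differences 2.11e-07, 1.01e-05 and 0.000132). Control clones 6 to 8 averaged 4.31, 3.62 and 4.12 TPM for these genes. From such levels log2(TPM + 1) cannot fall as far as in the triple, so the gaps do not measure a milder loss. In the double, knockout means were 47.6%, 8.56% and 8.97% of the control means. Tln2 fell further in the double, at -3.81 against -1.73 (limma adjusted p = 0.0221). Among those of the 20 not called in the double were Depp1, Angpt2, Tgfb3 and Crabp2. Their log2 changes were 0.51, -0.38, -0.69 and 0.28, with values between -1.60 and -3.74 in the triple. Tgfb3, at a mean of 2.66 TPM in control clones 6 to 8, could not fall by the -3.01 of the triple on this scale. Aqp2, Alpk1, Kptn, Enho and Foxd2os were also not called in the double. Mal2, a protein of apical transport, rose by 0.71 in the double and was at -0.60 in the triple (limma adjusted p = 0.0326).

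**Figure D4:**
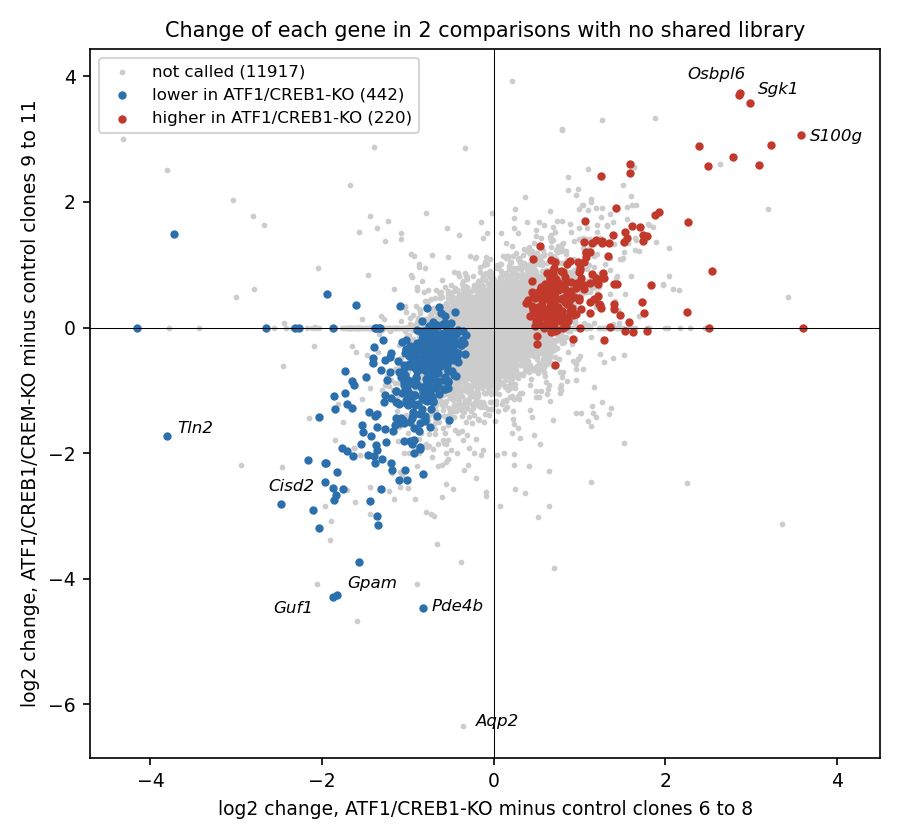
Log2 change of each tested gene in ATF1/CREB1-KO (horizontal) and ATF1/CREB1/CREM-KO (vertical), each against its own control clones, with calls of the 22-library fit in colour. Most coloured points lie in the lower left and upper right (93.7% of lowered and 91.8% of raised genes), Aqp2 lies far down at -6.34, and points on the horizontal line at 0 include genes listed at 0 in the triple comparison.

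The single knockout, ATF1-KO, has its own control clones 1 to 5. That comparison called 0 of 13318 genes (0.0%; 1014 at an unadjusted p under 0.05, limma). Of the 442 lowered genes 44.6% had the same sign there, and of the 220 raised genes 50.0%. The difference between the double and single knockout passed for 196 genes (1.56%), 52 higher and 144 lower, with all 9 genes of the 6-library test among them. The 9 were picked by their change in the double, which enters this difference, so their passing is no separate evidence. Creb1 differed by -0.92 (limma adjusted p = 0.00276), and Sgk1 by 4.37 (limma adjusted p = 0.0373).

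Genes of some chromosomes moved together in single knockout libraries. The median change over the genes of a chromosome was taken against the controls, less that of the whole library. In knockout replicate 1 it was -0.31 on chromosome 16, -0.245 on chromosome 11 and 0.321 on chromosome 17. Replicate 2 had -0.442 on chromosome 14, 0.438 on chromosome 18, 0.252 on chromosome 15, 0.21 on chromosome 17 and -0.237 on chromosome 12. Replicate 3 had -0.266 on chromosome 14. Among the control clones, each set against the other two, only control clone 7 passed 0.2 in size, with -0.232 on chromosome 3.

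Called genes were uneven over these chromosomes. Chromosome 11 held 89 called genes (8.65% of its tested genes), 80 of them lower, and chromosome 14 held 37 (9.3%), 36 of them lower, against 5.26% overall. On chromosome 17, 34 of 44 called genes were higher (6.64% of its tested genes called), and on chromosome 18, 16 of 17 (5.69%). Over all chromosomes 220 of 662 called genes were higher. Chromosome 12 held 36 called genes (7.33%), 30 of them lower, and chromosome 15 held 17 (3.43%), 13 of them higher. Chromosome 16 held 16 (3.97%), 14 of them lower. Tpt1 and Rpph1 lie on chromosome 14, Glod4, Rpl23a, Rpl26 and Rps27a on chromosome 11, and Rab5a, Lonp1 and Ndufv2, which were called higher, on chromosome 17. Crem, also called higher, lies on chromosome 18, and Mzt2 and Cebpd, called lower, on chromosome 16. The part of the chromosome-wide shifts in the calls of single genes was not tested. The palindrome was in 36 of 265 lowered genes with a window on other chromosomes (13.6%) and in 9 of 89 on chromosomes 11 and 14 (10.1%).

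**Figure D5:**
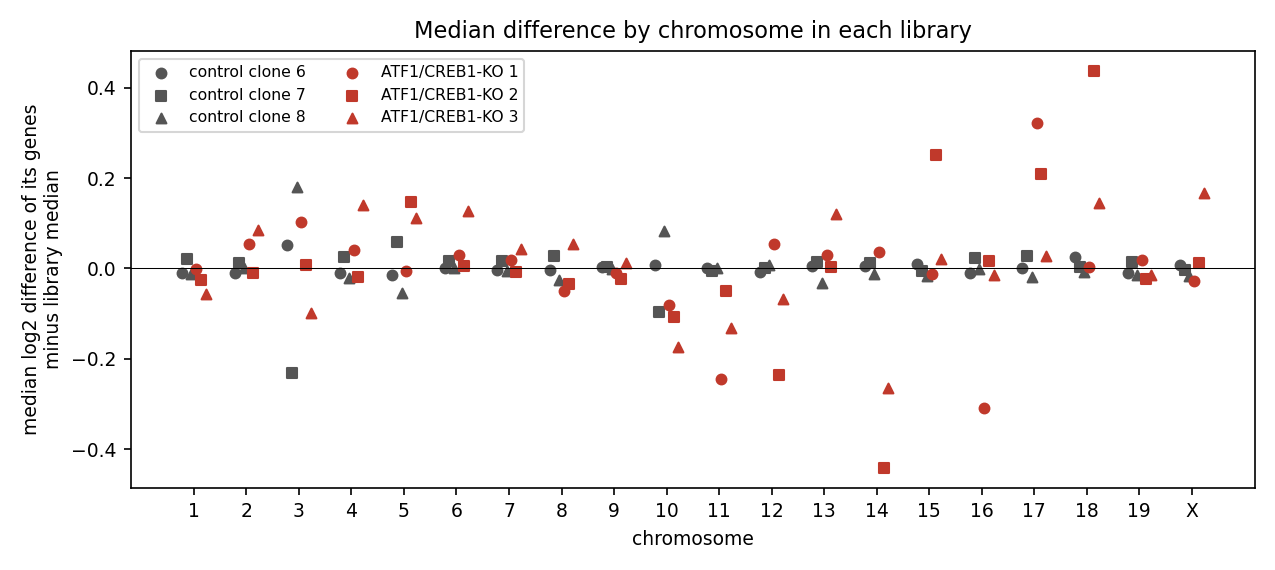
Median log2 difference of the genes of each chromosome minus the library's own median, for each of the 6 libraries (grey, control clones, each against the other two; red, ATF1/CREB1-KO replicates, each against the mean of the controls). Single knockout libraries lie away from 0 on chromosomes 11, 12, 14, 15, 16, 17 and 18, and control clone 7 on chromosome 3.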

How the data were processed

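RNA was measured by sequencing of SMARTer cDNA libraries. The submitters' processing notes name STAR and RSEM, with no version, and the genome build is not given in the sources used here. The deposited values are TPM, computed by the authors, 1 column per library. Genes that averaged 1 TPM or more in the 6 libraries were tested on log2(TPM + 1) with limma 3.58.1 (lmFit, eBayes with trend) in R 4.3.3, with Benjamini-Hochberg adjustment and a threshold of 0.05. Standard errors are from the 6-library fit. The same log2 contrast was also fitted over all 22 libraries with 6 means. Both fits were run on simulated data with independent normal noise and, for each gene, the same spread in all groups. That setting builds in the equal spread that the 22-library fit assumes, so it cannot check that assumption. Of 55414 gene identifiers, 52081 were found in GENCODE M21, which gave chromosome and biotype, and 50 names were added from the reference table. Named genes are Aqp2, Atf1, Creb1 and Crem; all called in 6 libraries; then, among 371 genes called in 22 libraries with unadjusted p under 0.05 in 6, no overlap and mean log2(TPM + 1) of at least 3, the 10 largest in each direction; and called list members. Other names were chosen after their values were seen. Members and lists were chosen with earlier results of these data known. Promoter motifs and chromosome medians are descriptions with no test. Alternatives were the pseudocount, the filter, scaling, library weights, no variance trend, and leaving out each library. One item is not reported here. The other 18 samples of the series were not analysed here.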

Additional observations from a re-analysis of the deposited data

Results flagged for a closer look

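The effect of 2 knockout labels was compared gene by gene in the 22-library limma fit, and the genes below are named genes whose change in ATF1/CREB1-KO differed from that in another knockout at an adjusted p under 0.05. No library is shared between the log2 changes, though all take their spread from the same 22 libraries. Apart from Aqp2, Atf1, Creb1 and Crem, the named genes were picked by their change in the double, which enters each difference. Their passing is therefore no separate evidence. The knockouts also differ in their run of library numbers, and genotype and run cannot be told apart.

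Against the triple knockout ATF1/CREB1/CREM-KO, the log2 change in the double minus that in the triple was as follows: Aqp2 5.98, Tln2 -2.08, Pde4b 3.65, Gpam 2.42 and Guf1 2.43. Positive values mean a smaller fall or a larger rise in the double knockout.

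Against the single knockout ATF1-KO, the log2 change in the double was the lower one, with these differences: Creb1 -0.92, Tln2 -3.32, Tpt1 -2.1, Cisd2 -1.69, 1810044D09Rik -2.07, Wdr90 -2.05, Rpph1 -2.98, Mrpl4 -2.09, Mzt2 -1.81, Rab27a -1.29, Gpam -1.87, E2f1 -0.673, Bax -0.721, Ndufb2 -0.98, Guf1 -1.79 and Tysnd1 -1.68. Ribosomal protein genes differed in the same direction: Rpl10 -0.653, Rpl32 -0.703, Rpl39 -1.1, Rps4x -0.486, Rps9 -0.658, Rps23 -0.942 and Rps27a -1.01. The change in the double was the higher one, with these differences, for Osbpl6 3.22, Pate14 2.6, Il18 2.77, Gm32461 3.6, S100g 4.5, Tspan13 4.94, Sgk1 4.37, Sult1c2 4.63 and Mlana 2.19. The mitochondrial transcripts mt-Nd1 1.17, mt-Nd5 1.32 and mt-Cytb 1.33 also differed upward. The difference was negative for Tln2 against both knockouts.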

How the results depend on the processing

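Of the 9 genes called in 6 libraries, no direction reversed under any alternative, and the same holds for all 74 named genes. Apart from the 22-library fits less 1 library, these 9 kept their call in 75 cases and lost it in 59. The count of 9 became 662 in the 22-library fit, 18 with median-ratio scaling, 21 with ribosomal protein and mitochondrial transcripts left out, 461 with library weights (258 of them among the 662; weight 0.104 for knockout replicate 3), 2 with no variance trend and 0 with no filter on mean TPM (1832 at an unadjusted p under 0.05, limma). It was 12 with a pseudocount of 0.1, 9 at a mean of at least 5 TPM and 11 with quantile normalization. Leaving out 1 library gave 0 to 50 genes in 6 libraries and 274 to 1474 in 22 (320 without control clone 6, 274 without 7, 340 without 8, and 1462, 1474 and 1075 without knockout replicates 1, 2 and 3). The share of called genes with the same sign in the triple knockout, 93.1%, ranged from 83.0% to 93.3%, lowest without knockout replicate 1, and 84.5% without replicate 2. The share of lowered genes with TGACGTCA, 12.7%, ranged from 6.8% to 17.1%, with 8.65% without knockout replicate 2. Lower calls were 66.8% of the total in the 22-library fit and 52.5% to 79.6% without 1 knockout library. The cause of these shifts was not tested. Of 460 list medians recomputed, 42 moved by more than 1 SD. No paired analysis was possible because the control clones are numbered 6 to 8 and the knockout replicates 1 to 3, with no shared number. The 22-library fits less 1 library, the core of 194 genes and the list counts without knockout replicate 3 were chosen after seeing the data. Depth is unknown from TPM.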
